A study of Homo sapiens with 4 samples.

Results

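The regions described here are all peaks on human chromosomes 4, 13 and 18 in a ChIP-seq experiment for PD-L1. They numbered 11593 of the 166628 peaks of replicate 1 and 6558 of the 93618 peaks of replicate 2, which is 18151 of 260246 peaks in all (6.97%). They were chosen by chromosome alone. The cells were an MDA-MB-231 subclone, from a long-used human line of triple-negative breast cancer, with the genotype label wild type. Chromatin was precipitated with an HA antibody (ab9110). The sources used here do not say how the HA tag entered these untreated cells, and the subclone is 1 clone of the line. There were 2 ChIP replicates, named in the design text as biological and independent, and 2 matching input samples. Each ChIP replicate had its own list of broad peaks on hg38, and the inputs had no list analysed here. Reads were not used here, so that depth is unknown, and no precipitation from cells without the tag was analysed here: binding and recovery of chromatin without the target cannot be told apart.

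PD-L1 is encoded by CD274 and is best known as a membrane protein that binds the inhibitory receptor PD-1 of T cells. Human chromosomes differ widely in how densely they carry genes. Chromosomes 4, 13 and 18 are classical gene-poor chromosomes, with long stretches of AT-rich, late-replicating chromatin that tends to lie near the nuclear periphery, interrupted by gene-rich, GC-rich blocks that are often near the chromosome ends. Chromosome 13 is also acrocentric, with a short arm made of repeats and ribosomal DNA.

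Sequences of 300 bases around gene starts (250 before and 50 after, RefSeq, GRCh38.p14) show what the peaks did and did not cover. Capitals mark the GC box, GGGCGG, on either strand. The first is NARS1 on chromosome 18 (cytoplasmic asparaginyl-tRNA synthetase; chr18:57621787-57622086, minus strand), where peaks of both replicates covered all 300 bases.
NARS1: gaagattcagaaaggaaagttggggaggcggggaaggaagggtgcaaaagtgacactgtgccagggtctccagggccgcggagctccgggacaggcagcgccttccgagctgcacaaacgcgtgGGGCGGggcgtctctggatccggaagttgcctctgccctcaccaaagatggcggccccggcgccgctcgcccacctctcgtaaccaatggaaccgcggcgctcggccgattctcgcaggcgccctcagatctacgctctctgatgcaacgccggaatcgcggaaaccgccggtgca
The next are the divergent neighbours ENOPH1, an enzyme of methionine salvage (chr4:82430340-82430639, plus strand), and HNRNPDL, an RNA-binding protein (chr4:82430176-82430475, minus strand), whose gene starts were 128 bp apart and whose windows overlapped by 136 bases. The peak of replicate 1 covered both windows, and the peak of replicate 2 in the same shared region covered no base of either.
ENOPH1: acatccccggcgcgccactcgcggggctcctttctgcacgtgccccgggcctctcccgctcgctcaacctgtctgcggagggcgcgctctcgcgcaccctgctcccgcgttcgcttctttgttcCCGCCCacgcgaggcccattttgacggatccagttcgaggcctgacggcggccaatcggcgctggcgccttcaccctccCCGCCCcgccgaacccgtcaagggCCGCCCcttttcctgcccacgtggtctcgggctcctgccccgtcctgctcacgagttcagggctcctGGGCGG
HNRNPDL: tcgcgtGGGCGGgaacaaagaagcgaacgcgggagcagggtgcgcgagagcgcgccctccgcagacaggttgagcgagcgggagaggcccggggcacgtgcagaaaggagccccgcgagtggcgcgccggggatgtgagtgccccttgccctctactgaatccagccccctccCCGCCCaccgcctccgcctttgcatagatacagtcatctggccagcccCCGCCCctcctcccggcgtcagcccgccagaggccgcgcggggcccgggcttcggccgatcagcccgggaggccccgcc
COL4A1, a basement membrane collagen chain transcribed away from COL4A2 (chr13:110307108-110307407, minus strand), was covered by replicate 1 alone; it was chosen after its values were seen.
COL4A1: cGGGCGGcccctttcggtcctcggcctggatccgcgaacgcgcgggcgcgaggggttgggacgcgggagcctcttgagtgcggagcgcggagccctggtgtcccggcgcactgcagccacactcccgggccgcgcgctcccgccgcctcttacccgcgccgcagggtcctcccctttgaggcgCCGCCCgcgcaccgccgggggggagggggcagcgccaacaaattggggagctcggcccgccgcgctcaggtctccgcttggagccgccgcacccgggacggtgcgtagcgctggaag
For contrast, 2 windows held no peak of either replicate. That of ADGRL3, an adhesion receptor of neurons, lay inside a stretch of chromosome 4 without peaks (chr4:61200076-61200375, plus strand). That of DSC3, a desmosomal cadherin of squamous epithelium, lay in a bin of chromosome 18 with few peaks for its number of genes (chr18:31042693-31042992, minus strand).
ADGRL3: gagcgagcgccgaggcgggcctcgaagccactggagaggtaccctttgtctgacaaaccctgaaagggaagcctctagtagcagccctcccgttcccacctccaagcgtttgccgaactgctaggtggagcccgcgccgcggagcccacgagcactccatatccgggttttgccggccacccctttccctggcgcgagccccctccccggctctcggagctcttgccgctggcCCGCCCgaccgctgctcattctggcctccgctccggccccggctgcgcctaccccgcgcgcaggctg
DSC3: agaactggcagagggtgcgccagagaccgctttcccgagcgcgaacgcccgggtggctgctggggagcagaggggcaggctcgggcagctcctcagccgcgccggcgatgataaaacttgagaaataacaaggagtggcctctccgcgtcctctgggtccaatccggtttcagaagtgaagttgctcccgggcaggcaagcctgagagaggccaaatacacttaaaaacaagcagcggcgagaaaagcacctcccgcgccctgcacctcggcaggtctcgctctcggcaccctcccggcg
The windows of NARS1, ENOPH1, HNRNPDL and COL4A1 were 65.3%, 71.3%, 73.3% and 76.7% GC with 31, 37, 35 and 45 CpG dinucleotides. Those of ADGRL3 and DSC3 were 69.7% and 63.3% GC with 30 and 25 CpG, so that GC content overlapped between the windows with and without a peak. The GC box occurred 1, 4, 3 and 2 times in the former and 1 and 0 times in the latter. A pair of windows chosen by the same rule and not printed was AT-rich. That of MC2R on chromosome 18, the corticotropin receptor gene, met a shared region with 62 of its bases under the peak of replicate 1, and it was 43% GC with 4 CpG and 0 GC boxes. That of CYSLTR2 on chromosome 13, a receptor for cysteinyl leukotrienes, met no peak and was 40.7% GC with 2 CpG and 0 GC boxes.

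The chromosomes held nearly the same share of each list. Chromosome 4 took 3.02% of the peaks of replicate 1 and 3.02% of those of replicate 2, chromosome 13 took 1.91% and 1.95%, and chromosome 18 took 2.03% and 2.03%. Per Mb, chromosome 4 had 26.4 peaks in the first replicate and 14.9 in the other. Chromosome 13 had 27.9 and 16.0, and chromosome 18 had 42.1 and 23.7, against 62.2 and 34.8 on the other 19 autosomes. Together the 3 chromosomes stood at 48.5% of the density of those autosomes in replicate 1 and at 49.0% in replicate 2. They were also the 3 lowest of 23 chromosomes (1 to 22 and X) in gene density, with 4.01, 2.94 and 3.34 protein-coding genes per Mb against 7.07. Per protein-coding gene the picture was therefore close to level: 8.48 peaks per gene in replicate 1 and 4.80 in replicate 2, against 8.79 and 4.92 on the other autosomes. The chromosomes differed among themselves on this scale. Chromosome 4 had 6.59 and 3.71 peaks per gene, chromosome 13 had 9.48 and 5.43, and chromosome 18 had 12.6 and 7.09. Low gene density did not fix the order of peak density: chromosome 13 has the fewest genes per Mb of 23 but ranked 4 and 3 from the lowest in peaks, and chromosome 18, with rank 2 in genes, had rank 6 in both lists. Chromosome X was lowest in both. With 1 pair of lists these differences between chromosomes were not tested.

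Enrichment at these peaks was low, as the authors' values per peak show. The fold enrichment over the caller's background had medians of 3.17, 3.12 and 3.16 on chromosomes 4, 13 and 18 in replicate 1, against 3.14 on the other autosomes. In replicate 2 the medians were 2.36, 2.42 and 2.43, against 2.26. On the 3 chromosomes, 0 peaks of replicate 1 and 3 of replicate 2 had a −log10 q of 5 or more. Among the peaks at or above the median fold of their list, the density of the 3 chromosomes was 50.99% of that of the other autosomes in replicate 1 and 70.6% in replicate 2. The chromosomes differed in this: chromosome 4 stood at 46.9% and 54.5%, chromosome 13 at 42.9% and 67.5%, and chromosome 18 at 72.3% and 113%. In replicate 2 chromosome 18 was thus above the other autosomes among higher-fold peaks, and below them (68.1%) among all peaks. Peaks were narrow, with median widths of 517 and 565 bp, against 619 and 642 bp elsewhere. They covered 2.22% of the 3 chromosomes in replicate 1 and 1.14% in replicate 2, against 5.66% and 2.65%.

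Peaks were gathered in few bins on chromosomes 4 and 13 and spread more evenly on chromosome 18. Counted in 1 Mb bins that hold a gene or a peak, the densest 10% of bins held 54.3% of the peaks of chromosome 4 in replicate 1 and 50.6% in replicate 2. On chromosome 13 they held 46.5% and 38.5%, and on chromosome 18 29.6% and 27.2%, against 30.8% and 31.2% on the other autosomes. On chromosome 4, 16 of 190 bins held 50% of the peaks of replicate 1, and on chromosome 18 it took 16 of 76 bins. The median bin held 11 and 7 peaks on chromosome 4, 18 and 11 on chromosome 13, and 32 and 18.5 on chromosome 18, against 42 and 24 elsewhere. Bins with 5 peaks or fewer made up 28.4%, 19.6% and 14.5% of the bins of the 3 chromosomes in replicate 1. Both replicates ranked the bins alike, with a Spearman correlation between their counts of 0.90, 0.92 and 0.94 (190, 97 and 76 bins). Bins of one chromosome share their library, base composition and neighbours, so that these and later correlations over bins are descriptions.

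**Figure D1:**
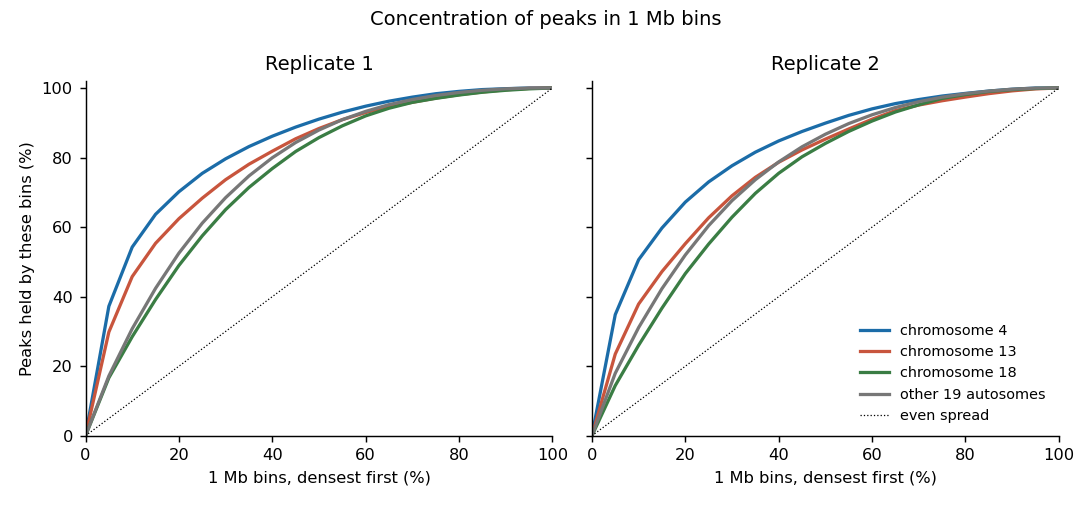
Percent of peaks (vertical axis) held by the densest bins (horizontal axis, percent of 1 Mb bins in descending order of peaks) for chromosomes 4, 13 and 18 and for the other 19 autosomes together, in each replicate. The curve of chromosome 4 is the steepest in both replicates, with 54.3% and 50.6% of its peaks in the densest 10% of bins, and that of chromosome 18 lies close to the other autosomes.

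Dense and sparse blocks were taken as runs of at least 3 consecutive bins in which both replicates were at or above the upper quartile of the chromosome's bins, or at or below the lower quartile; this rule was set after the values were seen. Chromosome 4 had 5 dense and 7 sparse runs, chromosome 13 had 2 and 1, and chromosome 18 had 2 and 2. The longest dense run was the first 9 Mb of chromosome 4, which make up 4.73% of its length and carry 13.6% of its protein-coding genes. It held 1792 and 938 peaks, or 35.6% and 33.1% of the chromosome's peaks in the 2 lists. Density there was 199 and 104 peaks per Mb, against 17.9 and 10.4 on the rest of the chromosome, and each of its 9 bins held at least 131 and 65 peaks.

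On chromosome 13 the run from 108 Mb to the end held 1067 and 500 peaks, 33.5% and 27.4% of the total, in 5.55% of the length with 13.7% of the genes. Shorter runs lay at 181 to 189 Mb of chromosome 4, near its other end, with 674 and 362 peaks, and at 97 to 101 Mb of chromosome 13, with 434 and 216. On chromosome 18 the dense runs were short: 57 to 60 Mb with 285 and 160 peaks, and 74 to 78 Mb with 362 and 214. The longest sparse runs lay at 53 to 60 Mb of chromosome 13, with 14 and 17 peaks for 9 genes, and at 58 to 64 and 65 to 71 Mb of chromosome 4. The latter pair held 3 and 5 peaks for 2 genes and 11 and 13 peaks for 45 genes, so that a sparse run was not always a run without genes.

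The background that the caller's fold and p jointly imply at each peak (an approximate Poisson mean in reads) moved with some of these blocks. In replicate 2 its median was 10.95 in the first 9 Mb of chromosome 4 and 6.88 on the rest, and 10.06 against 6.53 for the end of chromosome 13 from 108 Mb. In replicate 1 the same medians were 1.84 against 1.97, and 2.14 against 2.06. Replicate 1 differed more in other dense runs. Its median was 2.35 against 1.85 at 181 to 189 Mb of chromosome 4, and 2.32 against 2.03 at 97 to 101 Mb of chromosome 13. In replicate 2 these runs had 9.07 against 8.16, and 9.35 against 7.17. The dense runs at 15 to 18 and 24 to 27 Mb of chromosome 4 lay below the rest in both replicates. Over bins, the Spearman correlation between the peaks of replicate 2 and its implied background was 0.62, 0.53 and 0.88 on chromosomes 4, 13 and 18. In replicate 1 it was 0.40, 0.23 and -0.04. The part of this background in the number of peaks was not tested.

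Named bins show what the dense blocks contain. On chromosome 4 the densest bin was 7 to 8 Mb, with 273 peaks in replicate 1 and 148 in replicate 2 for 5 protein-coding genes. Of these, SORCS2, a sortilin-family receptor for proneurotrophins, had 154 and 79 peaks centred in its body, and AFAP1, an actin filament-binding adaptor, had 40 and 27. In the neighbouring bins PPP2R2C, a regulatory subunit of protein phosphatase 2A, had 65 and 37, and WFS1, a membrane protein of the endoplasmic reticulum, had 11 and 6. The order of these genes by peaks was the same in both replicates.

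On chromosome 13 the bin at 110 to 111 Mb held 218 and 101 peaks. COL4A2 and COL4A1, which encode the major collagen IV chains of basement membranes, accounted for 57 and 36 peaks and for 46 and 18. The bin at 113 to 114 Mb had 249 and 100 peaks over 20 genes, among them the E2F partner TFDP1 with 18 and 9 and the ubiquitin ligase scaffold CUL4A with 14 and 6.

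On chromosome 18 the densest bin, 48 to 49 Mb, had 220 and 90 peaks over 3 genes. CTIF, a translation initiation factor that acts with the nuclear cap-binding complex, had 91 and 35. The zinc-finger gene ZBTB7C had 74 and 30, and SMAD7, the inhibitory SMAD of TGF-beta signalling, had 11 and 1. The next were 79 to 80 Mb (116 and 71 peaks), where NFATC1, a calcineurin-dependent transcription factor, had 27 and 11, and 58 to 59 Mb (115 and 62), where the ubiquitin ligase NEDD4L had 48 and 18.

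Peak density followed protein-coding genes inside each chromosome, but only in part. A gene was counted in the bin of its midpoint, so that a bin with 0 genes can still hold part of a gene. The Spearman correlation between peaks and genes per bin was 0.56 in replicate 1 and 0.55 in replicate 2 on chromosome 4, 0.58 and 0.57 on chromosome 13, and 0.70 and 0.62 on chromosome 18. Over all 363 bins of the 3 chromosomes it was 0.57 and 0.55, against 0.61 and 0.59 over 2374 bins of the other autosomes. Part of this came from bins with no gene: over the 287 bins with at least 1 protein-coding gene it was 0.45 and 0.44. Over the 2116 such bins of the other autosomes it was 0.54 and 0.52. Bins with 0 genes had a median of 5 peaks in replicate 1 and 3 in replicate 2, bins with 1 to 4 genes had 12 and 9.5, and bins with 5 to 9 had 31 and 20. The 24 bins with 10 or more genes had 25 and 17, no more than the class below. On the other autosomes the same 4 classes had medians of 7, 23, 58.5 and 111 peaks in replicate 1 and 5, 14, 32 and 62 in replicate 2. Pooled, bins of the 3 chromosomes thus had lower medians in every class; chromosomes 4 and 13 did so one by one, and chromosome 18 did not. Its medians for the first 3 classes, 8, 27 and 61 in replicate 1 and 5.5, 15 and 38 in replicate 2, lay above those of the other autosomes. Only in its 4 bins with 10 or more genes was it lower, with 52 and 25.5.

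**Figure D2:**
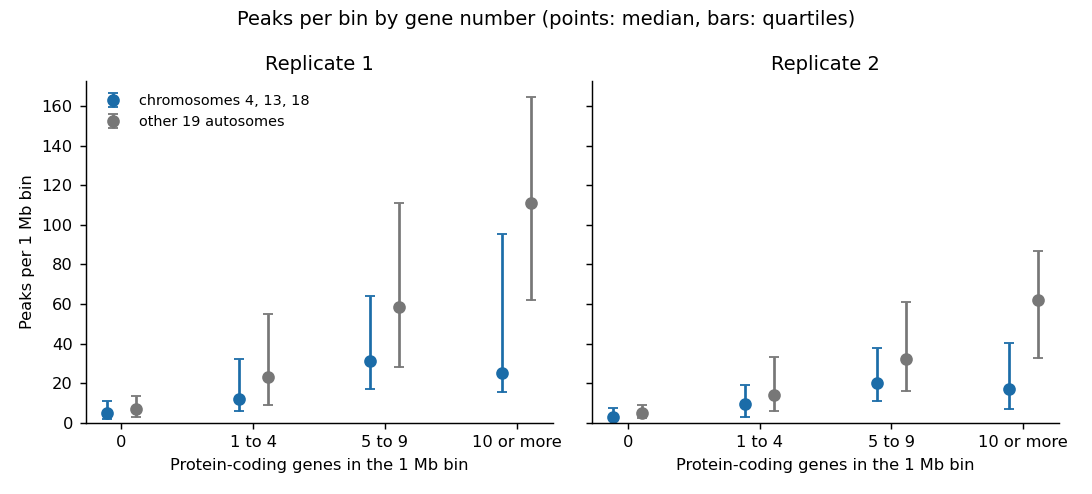
Peaks per 1 Mb bin (vertical axis) by the number of protein-coding genes in the bin (horizontal axis) on chromosomes 4, 13 and 18 together and on the other 19 autosomes; points are medians and bars run from the lower to the upper quartile over bins. Medians climb to 111 and 62 on the other autosomes and stay at 25 and 17 in the class of 10 or more genes on the 3 chromosomes, with overlapping quartile ranges.

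**Figure D3:**
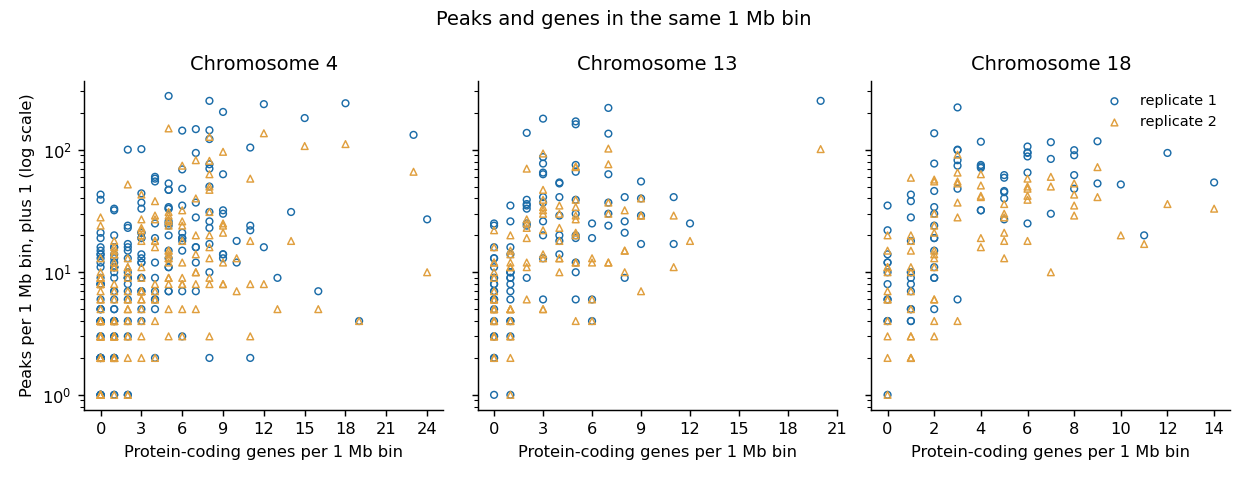
Peaks per 1 Mb bin plus 1 (vertical axis, log scale) against protein-coding genes per bin (horizontal axis), 1 point per bin and replicate, for each chromosome. Bins without a gene sit low on all 3 chromosomes, and chromosome 4 has bins with over 10 genes and few peaks, among them the gene clusters named in the text.

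On chromosome 4 the bins with many genes and few peaks held clusters of tandem gene families. From 68 to 71 Mb, 3 bins with 8, 11 and 19 protein-coding genes had 1, 1 and 3 peaks in replicate 1 and 2, 2 and 3 in replicate 2. They hold the UGT2 glucuronosyltransferases, liver enzymes that conjugate steroids and drugs, and the casein, statherin and histatin genes of milk and saliva. The bin at 9 to 10 Mb had 24 protein-coding genes but 26 and 9 peaks, next to the densest block of the chromosome. There, 19 of the genes were USP17L deubiquitinase copies, and 0 of these had a peak of either replicate in the body or within 1 kb of an end. These copies are near-identical, and the sources used here do not say how reads with several matches were handled.

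Chromosome 13 had sparse bins at 57 to 58 Mb, with 6 genes and 3 peaks in each replicate, and at 48 to 49 Mb, with 8 genes and 8 and 9 peaks. The latter holds RB1, the retinoblastoma tumour suppressor, with 1 and 0 peaks. The former holds PRR20A, PRR20B, PRR20C and PRR20D, copies of 1 gene family, each with 0 peaks of either replicate centred in the body. The limit on reads with several matches given for USP17L applies to such copies too. On chromosome 18 the bin at 31 to 32 Mb, which holds desmosomal cadherins, had 11 genes and 19 and 16 peaks. The median bin of that chromosome held 32 and 18.5 peaks.

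Other bins had many peaks and few genes. On chromosome 13, 109 to 110 Mb had 136 and 69 peaks for 2 genes, of which the insulin receptor substrate IRS2 held only 5 and 6. On chromosome 18, 8 to 9 Mb had 135 and 56 peaks for 2 genes, with 29 and 10 in MTCL1, a microtubule crosslinker, and 78 to 79 Mb had 42 and 58 peaks with 0 in its gene SALL3. On chromosome 4 the bin at 187 to 188 Mb had 42 and 27 peaks with 0.423% of its bases in protein-coding genes. That at 181 to 182 Mb, with 38 and 23 peaks, had no gene midpoint, but 55.2% of its bases lay in protein-coding genes, since TENM3 begins there. The bins at 109 to 110 Mb of chromosome 13 and at 8 to 9 and 78 to 79 Mb of chromosome 18 had 24.6%, 56.4% and 1.92% of their bases in such genes.

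Long genes differed widely in their peaks. On chromosome 4 CCSER1, of 1.48 Mb, held 2 and 4 peaks, whereas TENM3, a teneurin gene of 1.36 Mb on the same chromosome, held 77 and 49. On chromosome 13 the glypican genes GPC5 and GPC6 held 17 and 8 and 26 and 17, and the protocadherin gene PCDH9 11 and 3. On chromosome 18 the netrin receptor gene DCC (1.20 Mb) had 6 and 3 peaks, the synaptic scaffold gene DLGAP1 25 and 13, and PTPRM, a receptor phosphatase gene of 0.840 Mb, 63 and 27. Within each chromosome the order of these genes by peaks was the same in both replicates.

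Stretches of 1 Mb or more without a peak in either replicate numbered 6 on chromosome 4, 2 on chromosome 13 and 1 on chromosome 18. They amounted to 9.05, 20.4 and 6.16 Mb. Most of this length was a single stretch on chromosomes 13 and 18: the first 18.96 Mb of chromosome 13, with the acrocentric short arm, and 14.94 to 21.09 Mb of chromosome 18, around the centromere, each with 0 protein-coding genes. Assembly gaps were not read here, so that a stretch where no peak could be called cannot be told apart from one without enrichment. In the stretch of chromosome 13, 18 bins held neither a gene nor a peak. Stretches that held some annotated gene, both of these included, made up 8.68% of the 3 chromosomes and 9.62% of the other autosomes. Protein-coding genes lay in 3 of the 9 stretches. That at 69.32 to 70.69 Mb of chromosome 4 held 23, among them UGT2A1, UGT2B4, the sulfotransferase gene SULT1B1 and the salivary mucin gene MUC7. That at 60.46 to 62.16 Mb held ADGRL3, 0.878 Mb long, and 1 predicted gene, and that at 53.79 to 55.20 Mb of chromosome 13 held 1 predicted gene. Between them the lists differed more: replicate 1 alone left 20 such stretches on the 3 chromosomes and replicate 2 alone 27, and at 2 Mb or more the count in both was 3.

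Sharing between replicates was lower on these chromosomes than over the genome. Of the peaks of replicate 1, 22.9%, 21.9% and 18.2% on chromosomes 4, 13 and 18 overlapped a peak of replicate 2 by at least 1 bp, where over all 23 chromosomes 28.7% did. Of the peaks of replicate 2, 41.0%, 38.0% and 32.0% overlapped one of replicate 1, where over all chromosomes 52% did. The 95% Wilson intervals, which cover counting error only, were 21.8 to 24.1, 20.5 to 23.4 and 16.9 to 19.5 for replicate 1 and 39.2 to 42.9, 35.8 to 40.2 and 30.0 to 34.2 for replicate 2. Sharing was close between chromosomes 4 and 13, whose intervals overlapped, and lowest on chromosome 18, which has the most peaks per Mb of the 3. Among higher-fold peaks this order did not hold: 9.24%, 11.1% and 12.4% of replicate 1 and 14.4%, 12.9% and 14.5% of replicate 2 were shared on chromosomes 4, 13 and 18, against 11.2% and 20.6% on the other autosomes, so that chromosome 18 was highest of the 3 and, in replicate 1, above the other autosomes. Low sharing was not particular to these chromosomes. It was 19.3%, 17.2% and 20.04% of replicate 1 and 30.0%, 21.6% and 25.2% of replicate 2 on chromosomes 8, 21 and 22, and 10.6% and 5.15% on chromosome X. The overlaps formed 1119, 682 and 603 shared regions (unions of overlapping peaks with at least 1 of each replicate), 2404 of 45771 in the genome.

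Sharing was highest in the densest bins. In bins with 1 to 10, 11 to 50 and 51 or more peaks of replicate 2, the shared share of those peaks was 17.4%, 26.7% and 64.9% on chromosome 4 and 25.3%, 26.0% and 63.8% on chromosome 13. On chromosome 18 it was 13.7%, 31.5% and 35.9%. In the same classes by peaks of replicate 1, the shared share was 8.59%, 14.2% and 29.8% on chromosome 4 and 5.00%, 16.1% and 19.4% on chromosome 18. On chromosome 13 it was 16.1%, 12.4% and 28.1%, with no rise from the first class to the second. In the densest of the classes of replicate 2 classes the other list covered 19.5%, 17.6% and 8.20% of the bases of the bins, and in the sparsest 0.382%, 0.327% and 0.371%, so that both were highest in the densest class. On the other autosomes the 3 classes had 21.5%, 37.2% and 62.8%, with 15.7% of bases covered in the densest. The part of covered bases in the sharing was not tested. With a reciprocal overlap of 50%, 7.19% of the peaks of replicate 1 and 12.7% of those of replicate 2 on the 3 chromosomes were shared, in 833 regions.

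**Figure D4:**
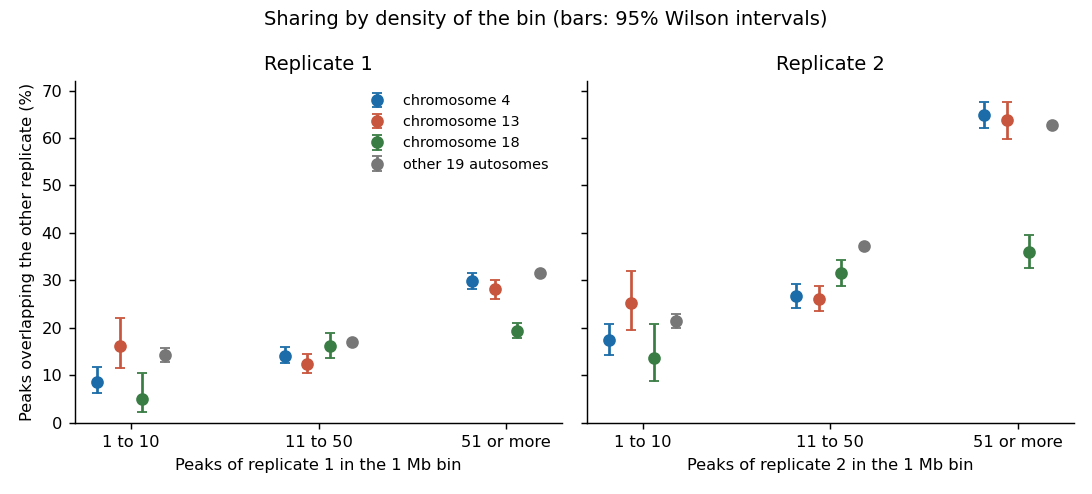
Percent of peaks that overlap the other replicate (vertical axis) by the number of peaks of the same list in the 1 Mb bin (horizontal axis) for chromosomes 4, 13 and 18 and the other 19 autosomes, with 95% Wilson intervals. Sharing climbs to over 60% in the densest bins of chromosomes 4 and 13 in replicate 2 and reaches 35.9% on chromosome 18.

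Shared peaks were wider but not more enriched in both lists. An overlap of 1 bp is met more easily by a wide peak, and the part of this definition in the widths was not tested. On chromosome 4 the median width of shared peaks was 802 and 729 bp in replicates 1 and 2, against 487 and 512 bp for the others. Their median fold was 3.20 against 3.16 in replicate 1 and 2.22 against 2.47 in replicate 2, so that shared peaks of replicate 2 had the lower fold. Chromosomes 13 and 18 showed the same in replicate 2, with 2.28 against 2.50 and 2.37 against 2.47. Within shared regions, the fold of one replicate did not follow that of the other: the Spearman correlation was -0.08, -0.04 and -0.05 over the 1119, 682 and 603 regions, and 0.10 on the other autosomes.

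Shared regions lay in and around genes more often than the bases of the chromosomes do; against the bases of the same 1 Mb bins, this held for gene ends but not for gene bodies. Of the 2404 region centres, 54.0% lay inside a protein-coding gene, 6.57% within 1 kb of one of its ends, 10.1% in another gene only and 29.3% outside genes. The bases of the 3 chromosomes divide as 33.7%, 1.35%, 14.2% and 50.7%. Regions were thus 1.60 times as frequent inside protein-coding genes as bases are, 4.87 times at gene ends and 0.579 times outside genes. Against the bases of the same 1 Mb bins, weighted by the regions in each, the ratios were 1.01, 2.39 and 0.904. Inside a bin, gene bodies therefore held no more than their share of bases, and gene ends did. The pattern was alike on each chromosome: 2.49, 2.14 and 2.44 at gene ends and 1.00, 1.04 and 0.997 inside genes on chromosomes 4, 13 and 18. On the other autosomes the same ratios were 2.07 and 1.01. Peaks of each replicate were also taken alone. Gene ends on the 3 chromosomes then had 4.90 times their share of bases in replicate 1 and 2.91 times in replicate 2. Against the bases of the same bins these ratios were 2.80 and 1.74. On the other autosomes they were 3.36 and 2.59, and 2.06 and 1.61 by bins.

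**Figure D5:**
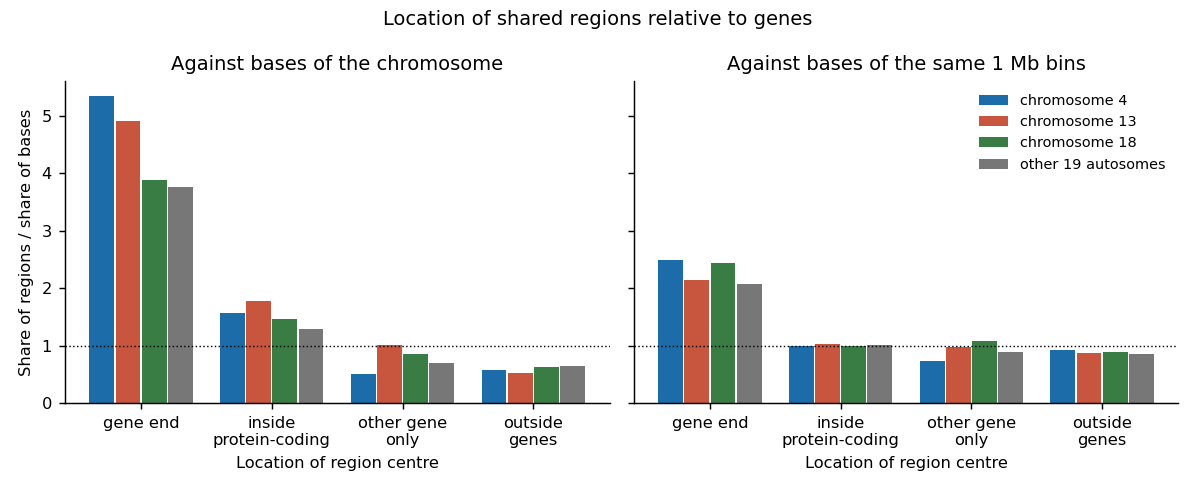
Share of shared regions with their centre in each location divided by the share of bases (vertical axis) on chromosomes 4, 13 and 18 and the other 19 autosomes, against bases of the whole chromosome (left) and of the same 1 Mb bins (right); the dotted line marks 1. Inside protein-coding genes the bars fall from between 1.46 and 1.78 on the 3 chromosomes to about 1 once bins are taken into account, and gene ends stay above 2.

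Regions at gene ends in the densest bins made up a smaller part of all regions than elsewhere. On chromosome 4, 815 of 1119 regions lay in the densest 10% of bins, where 6.01% of centres were at gene ends and 63.1% inside protein-coding genes. In its other bins these shares were 13.8% and 39.5%. Chromosomes 13 and 18 had the same order, with 3.57% against 8.397% and 1.46% against 6.80% at gene ends.

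Few genes of these chromosomes had a shared region at an end. It was 127 of 763 protein-coding genes on chromosome 4 (16.6%), 61 of 336 on chromosome 13 (18.2%) and 46 of 268 on chromosome 18 (17.2%), 234 of 1367 in all (17.1%), where 33.1% of all protein-coding genes did. Of the 234 genes, 197 had a peak of each replicate in the windows of 1 kb, and in the other 37 a peak of at least 1 replicate in the region lay beyond them. Taken by itself, replicate 1 had a peak at the ends of 780 of the 1367 genes (57.1%; 69.2% of all genes) and replicate 2 at those of 319 (23.3%; 37.3%). A shared region anywhere in the body was found in 440 genes (32.2%; 49.1% of all genes). Where the promoter table gives the strand (1190 genes), a shared region lay within 1 kb of the start in 160 (13.4%; 24.1% of all such genes) and of the other end in 76 (6.39%; 17.6%). The count of 234 was 58 with the higher-fold peaks of each list (4.24%; 7.68% of all genes) and 69 with a reciprocal overlap of 50% (5.05%; 9.97%).

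The replicates differed more at gene starts than over the chromosomes. Of 1766 promoter windows of 300 bases on the 3 chromosomes, 633 (35.8%) met a peak of replicate 1 and 160 (9.06%) one of replicate 2, where all windows of the genome had 49.9% and 13.2% and the other autosomes 53.6% and 14.2%. A shared region met 182 windows (10.3%; 20.2% of all windows), and peaks of both replicates met 91 (5.15%; 9.62%). Windows with a shared region were richer in CpG, with a median of 26 against 21 in the others, and had a median GC content of 65% against 61.2%. At equal GC content, the share of windows with a shared region was lower than on the other autosomes in 3 of 4 classes: 3.14% against 3.05% under 45% GC, 7.96% against 17.2% from 45 to 55%, 13.6% against 29.0% from 55 to 65% and 12.4% against 24.5% at 65% or more. The GC box stood in 59.3% of windows with a shared region and 53.7% of those without, and in 56.3% of all promoter windows of the genome. The TATA box (TATAAA) stood in 5.49% and 11.6%, with 9.46% overall. The CRE (TGACGTCA) stood in 7.14% and 2.90%, which is 13 and 46 windows, with 2.26% overall. On chromosomes 4, 13 and 18 it stood in 9 of 101, 0 of 47 and 4 of 34 windows with a shared region. Without one it stood in 27 of 866, 9 of 387 and 10 of 331, so that chromosome 13 had the other order. The 182 windows with a shared region came from 149 genes. CCAAT stood in 31.9% and 32.6% (34.6% overall), the ETS motif CCGGAAG in 15.4% and 9.85% (12.8%), the AP-1 motif TGANTCA in 4.95% and 7.64% (6.15%), and the NRF1 motif in 3.85% and 1.39% (1.505%). All were searched on both strands, and the letters of no motif contain those of another; these matches are descriptions of the sequence.

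The best-ranked regions at gene ends, by the mean rank of fold in both replicates, belonged to genes of unlike function. On chromosome 4 they were at PPP3CA, the catalytic subunit of calcineurin (fold 3.76 in replicate 1 and 2.62 in replicate 2), at the shared start of ENOPH1 and HNRNPDL printed above (chr4:82428809-82431298; 3.41 and 3.01), at BMP2K, a protein kinase gene (3.39 and 3.31), and at the start of FGF5, a growth factor of the hair cycle (3.49 and 2.65). On chromosome 13 they were at DZIP1, a ciliary zinc-finger gene (3.67 and 2.78), CNMD, encoding the cartilage protein chondromodulin (3.57 and 2.60), ADPRHL1 (3.46 and 2.78), UGGT2, a folding sensor of glycoproteins (3.40 and 2.98), and CFAP97D2 (3.54 and 2.50). The region of ADPRHL1 was at its downstream end, and those of the other 4 at the start. None of these 5 regions met a promoter window of its gene.

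On chromosome 18 they were at RAX, a retinal homeobox gene (3.68 and 2.49), NARS1 (chr18:57621350-57622230; 3.50 and 2.50), KCNG2, a potassium channel subunit (3.30 and 2.69), HSBP1L1 (3.47 and 2.36) and MC2R, the corticotropin receptor gene (3.42 and 2.37), all at the start. At CFAP97D2 replicate 1, and at HSBP1L1 and MC2R replicate 2, had its peak beyond 1 kb of the gene's ends. The fold of these regions lay in a narrow band, from 3.30 to 3.76 in replicate 1 and from 2.36 to 3.31 in replicate 2.

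Of the 3 widest regions of each chromosome, all 3 of chromosome 13 and 2 of chromosome 4 lay in the dense runs described above. On chromosome 18, 0 did, but those in CTIF and KCNG2 lay in its bins at 48 to 49 and 79 to 80 Mb. These bins are among its densest and belong to no run. The widest region of chromosome 4, of 15442 bp, lay in WDR1, a cofactor of actin disassembly, with fold 3.22 and 2.11, beyond the dense run at the start of that chromosome. The next spanned RGS12 and HGFAC (12360 bp). On chromosome 13 a region of 10069 bp ran over the divergent starts of COL4A1 and COL4A2, which lie 127 bp apart (chr13:110306316-110316384; fold 3.14 and 2.22). Replicate 2 had no peak within 1 kb of an end of either gene. The widest of chromosome 18 was 5896 bp, in IMPA2, an inositol monophosphatase gene. The best-ranked regions were short: 217 bp in COL25A1 on chromosome 4 (3.91 and 3.34), 515 bp in CUL4A on chromosome 13 (4.21 and 3.33), and 306 bp on chromosome 18 outside genes, 86790 bp from GATA6 (3.84 and 3.45).

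Gene lists were drawn up for families that lie on these chromosomes. Of 154 listed genes in 17 lists, 12 had a shared region at an end (7.79%), against 17.1% of all genes of the 3 chromosomes. The lists were chosen with earlier results of these data known and include clusters in sparse bins. The pooled share therefore depends on the choice of lists. The clusters of chromosome 4 had none: 0 of 13 CXC chemokines, inflammatory ligands that include CXCL8, 0 of 7 alcohol dehydrogenases and 0 of 15 genes of milk, saliva and enamel. All 10 UGT2 genes and all 15 of the milk, saliva and enamel genes were without a peak of either replicate in the body. Their bodies span 366 and 206 kb, in bins with medians of 1 and 3 peaks of replicate 1. The share of all protein-coding genes without any peak in the body is not given here, so that such counts are descriptions only. A shared region at an end was also found in 0 of 7 desmosomal cadherins, 0 of 4 GABA-A receptor subunits and 0 of 7 receptor tyrosine kinases, though 3, 3 and 6 of them had a peak of some replicate in the body. Replicate 1 had a peak at an end of 5 of the kinases, KIT, PDGFRA, FGFR3, FLT1 and EPHA5, a count near its share of 69.2% over all genes. Of 5 Toll-like receptors 0 had a shared region at an end, and of the 10 clade B serpins, protease inhibitors in a cluster on chromosome 18, only SERPINB11 did (fold 2.98 and 2.76).

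Among transducers of TGF-beta and BMP signals, SMAD4, the common partner, had a shared region at its start (3.08 and 2.23), and SMAD7 and SMAD9 had one in the body alone. All 4 basement membrane genes held many peaks in the body, 147 in replicate 1 and 81 in replicate 2 over 806 kb: besides COL4A1 and COL4A2, LAMA1 had 20 and 13 and LAMA3 24 and 14. Developmental transcription factors had a region at an end in 4 of 21: HAND2 of the heart and limb (3.24 and 2.22) and FOXO1, an effector of insulin signalling (2.93 and 2.96), at the start, and SOX1 (3.06 and 2.37) and ZIC2 (3.55 and 2.22), of the neural tube, at the other end. At ZIC2 replicate 2 had its peak beyond 1 kb of the gene's ends. Of 22 housekeeping genes, HNRNPDL, POLR2B, a core subunit of RNA polymerase II (3.08 and 2.41), and RPL17, of the large ribosomal subunit (2.94 and 2.42), had one, or 13.6%. Among 10 tumour suppressors and survival genes only ING1, a chromatin reader, had one (3.20 and 2.04), while BCL2 held 15 and 8 peaks in its body, FAT1 18 and 10, and RB1 and TET2 1 and 0 each. The shares of the transcription factors (19.05%), housekeeping genes (13.6%) and tumour suppressors (10%) lay near the 17.1% over all genes of the 3 chromosomes, so that these counts are no result about the lists. The lists lie in bins of unlike density, with a median of 1 peak of replicate 1 per bin for UGT2 and 166 for the basement membrane genes.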

How the data were processed

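ChIP with an HA antibody and input were sequenced from MDA-MB-231 cells, 2 samples each. Bowtie2 2.2.9, MACS2 2.1.1 and hg38 are named by the submitters' processing notes without saying which did what. Thresholds, duplicate handling and reads with several matches are not described in the sources used here. The deposited broad peak lists give, per peak, a score, a fold enrichment (ratio) and the −log10 p and −log10 q of the authors' caller. They served for description, for ranking and filtering inside 1 list and for the implied background. The peak names of replicate 2 contain the word Merge, which the labels do not explain. Median −log10 q on the 3 chromosomes was 1.88 and 1.80, where the lowest in the lists was 1.30 in both; peak numbers depend on depth and on the caller's threshold, which are unknown.

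Members and gene lists were chosen with earlier results of these data known. Peaks were counted by centre in 1 Mb bins, and bins with neither a gene nor a peak were left out. Chromosome length was taken as the last gene or peak end, since no genome sequence was used here. Gene positions were read from the RefSeq table (GRCh38.p14) after 679 entries with coordinates of other scaffolds were removed (33 on chromosomes 4, 13 and 18), which left 19817 protein-coding genes. Gene-end windows reach 1 kb to each side of both ends. The strand and promoter windows of 1190 of the 1367 protein-coding genes of the 3 chromosomes came from a RefSeq promoter table. Genes were named by a rule: per chromosome the 5 genes at the best-ranked shared regions, the 3 densest bins, the longest peak-free stretches, the 3 longest genes, list members, and the best-ranked and widest regions. Some results that this rule covers are not reported here. The bins of many genes and few peaks, or the converse, were taken by the gap between their ranks in genes and in peaks within the chromosome. They and the segments were added after the values were seen. No model was fitted and no test across genes was run; intervals are 95% Wilson intervals. Overlap counting was tested on simulated peaks. Python 3.11.15, numpy 2.4.6, pandas 2.3.3, scipy 1.17.1 and matplotlib 3.10.9 were used. Alternatives were higher-fold peaks, equal numbers of peaks (93618), each replicate alone, a reciprocal overlap of 50%, and other windows, bins and lengths.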

Additional observations from a re-analysis of the deposited data

How the results depend on the processing

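Depth and the caller's settings limit every count, and 2 lists of 1 line allow no test between chromosomes. Of the results recomputed, 2 changed direction. Density on chromosome 18 in replicate 2, 68.1% of that of the other autosomes, was 113% with higher-fold peaks. The ratio for regions inside protein-coding genes on chromosome 18, 1.46 against the chromosome's bases, was 0.997 against the bases of the same 1 Mb bins; there the construction itself removes the differences between bins. Density of the 3 chromosomes as a percent of the other autosomes, 48.5 in replicate 1 and 49.0 in replicate 2, was 50.99 and 70.6 with the peaks at or above the median fold of each list, 45.2 in replicate 1 with equal numbers of peaks, 50.6 and 49.5 after merging within 1 kb, 49.0 and 49.55 outside gene-free stretches, and 39.2 and 43.2 by covered bases. The shared percent, 21.3 and 37.6, was 10.6 and 14.02 with higher-fold peaks, 23.4 and 22.1 with equal numbers, and 7.19 and 12.7 with a reciprocal overlap of 50%. The 2404 shared regions became 635, 1400 and 833 under the same 3 settings, and single lists held 6558 to 11593 peaks. Peak-free stretches numbered 49 at 500 kb or more, 3 at 2 Mb or more and 20 to 27 with 1 replicate left out, against 9.

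The ratio at gene ends, 4.87, was 2.76 with windows of 5 kb, 7.22 by any overlap, 2.39 against the bases of the same bins (chosen after seeing the data) and 2.91 to 4.90 with 1 replicate left out. Inside protein-coding genes, 1.60 became 1.39 with higher-fold peaks, 1.54 with reciprocal overlap, 1.53 with 5 kb windows, 1.55 by any overlap, 1.01 by bins and 1.44 to 1.48 with 1 replicate. Outside genes, 0.579 became 0.671 with higher-fold peaks, 0.540 with 5 kb windows, 0.539 by any overlap, 0.904 by bins and 0.632 to 0.683 with 1 replicate. The Spearman correlation of peaks with genes over bins, 0.57 and 0.55, was 0.62 in replicate 1 with higher-fold peaks, 0.51 and 0.48 in 500 kb bins, 0.59 in replicate 2 in 2 Mb bins, 0.48 and 0.47 with bases inside genes, 0.57 in replicate 2 with all genes, 0.60 in replicate 1 with covered bases, and 0.45 and 0.44 over bins with a gene. Between replicates, 0.93 became 0.88 with higher-fold peaks, 0.90 with equal numbers, 0.88 in 500 kb bins and 0.96 in 2 Mb bins. The 234 genes with a shared region at an end became 58 with higher-fold peaks, 152 with equal numbers, 69 with reciprocal overlap, 366 with 5 kb windows, 440 over gene bodies, 160 at starts alone (chosen after seeing the data) and 319 to 780 with 1 replicate left out. Apart from the settings that build in the change, the cause was not tested. No paired analysis was possible because the peak lists come from no test between samples and the inputs, which share the replicate numbers, had no list analysed here.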
